A study of Homo sapiens with 9 samples.

Results

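The 10 genes described here, GSTP1, GSTM3, MGST3, GCLC, GCLM, GSR, TXNRD1, NQO1, HMOX1 and NFE2L2, encode enzymes of glutathione and thioredoxin metabolism and the transcription factor NRF2. They were taken by name from the 60648 genes used of the count table, and all 10 were among the 19473 genes that passed the filter on low counts. The set was drawn up around GSTP1, which was selected on its counts, near 0 in TC4-2A cells, so its values in TC4-2A cells are given as a description with no test. The other 9 genes were listed for their function, with earlier results of these data known. RNA was measured in T-REx cells, a derivative of the human embryonic kidney line HEK293 that allows expression to be induced with doxycycline (Dox), and in the T-REx-derived lines TC4-2A and TL4-2A. TC4-2A cells are a stable line that makes a circular RNA of SMN exons 2A, 2B, 3 and 4 on induction, and TL4-2A cells one that makes a linear RNA of the same exons. T-REx cells are the control that makes neither, and cells of all 3 lines received Dox for 96 h before collection, so Dox itself is not a difference between them. Each line had 3 libraries. The sources do not state whether these came from separate cultures, or whether TC4-2A and TL4-2A are single clones, so the p-values reflect no more than the spread of these libraries, which may be technical, and an effect of the line and one of the RNA it makes cannot be told apart.

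Total counts per library ran from 16561680 to 21491977. SMN1 and SMN2 together had 54.8 ± 1.08 CPM for T-REx cells (CPM, the count relative to the TMM-scaled library total; SD, n = 3), 94.7 ± 2.99 for TC4-2A cells and 62.4 ± 1.49 for TL4-2A cells, a sum that does not separate induced from endogenous RNA. All 6 markers of HEK293 cells that were looked at had reads in each line, but their levels differed. In the order T-REx, TC4-2A and TL4-2A, IRS4 had 2340, 2830 and 3730 CPM, higher in both derived lines. PAX2 had 7.19, 8.52 and 7.36 CPM, higher in TC4-2A cells and close to the T-REx level in TL4-2A cells. The other markers were lower in both derived lines, with 217, 121 and 132 CPM for NEFL and 2.36, 1.47 and 1.97 for NEFM. VIM had 566, 460 and 504 CPM, and EPCAM 122, 83.4 and 81.2. The part of these differences in the results was not tested. PTPRC and ALB, markers of blood and liver cells, had at most 6 counts in any line. In bulk RNA fewer expressing cells and less RNA per cell cannot be told apart.

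Glutathione is the main small thiol of the cell. GCLC and GCLM form the ligase of its first synthetic step, GSR returns its oxidised form to the reduced one, and glutathione transferases such as GSTP1 join it to reactive compounds. NRF2, the product of NFE2L2, is normally bound by KEAP1 and degraded through the CUL3 ubiquitin ligase. When released it pairs with small MAF proteins at antioxidant response elements and raises genes such as NQO1, HMOX1, TXNRD1, GCLC and GCLM. GSTP1 is also known as a gene that can be silenced by methylation of its promoter, which was not measured here.

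The GSTP1 promoter is shown because the fall of this gene is the largest in the set. GSTP1 (ENSG00000084207.18) is a protein-coding gene on chromosome 11 of GRCh38 from 67583742 to 67586656, on the plus strand. The 250 bases before its RefSeq start (GRCh38.p14, chr11:67583562-67583811, plus strand) are given with capitals for the letters TGACTCAGC.
GSTP1: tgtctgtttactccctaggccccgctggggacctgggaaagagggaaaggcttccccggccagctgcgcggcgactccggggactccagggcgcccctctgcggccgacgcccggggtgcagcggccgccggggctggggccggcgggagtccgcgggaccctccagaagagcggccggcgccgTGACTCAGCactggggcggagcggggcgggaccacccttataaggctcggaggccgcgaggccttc
This window held 28 CpG dinucleotides and 74.8% G and C. Over 35114 promoter windows of this length the medians were 11 CpG and 58% G and C, and 84.1% of windows had fewer CpG than GSTP1. The capitals match TGACTCA, the core of AP-1 sites, and TGACNNNGC, the core of antioxidant response elements, which overlap here. Both strands were searched. TGACTCA was present in 4.2% and TGACNNNGC in 10.9% of all windows.

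RefSeq windows were matched for 8 of the 10 genes, and TGACNNNGC was found in those of GSTP1, GCLM and TXNRD1. The matches are set side by side, with capitals for the matching letters and 10 bases on each side, written along the strand of the gene. In GCLM and in the later TXNRD1 window the match lies on the other strand.
GSTP1, chr11:67583736-67583764: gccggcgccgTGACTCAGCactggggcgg
GCLM, chr1:93909446-93909474: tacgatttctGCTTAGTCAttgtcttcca
TXNRD1, earlier start, chr12:104215670-104215698: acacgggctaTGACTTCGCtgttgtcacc
TXNRD1, later start, chr12:104286920-104286948: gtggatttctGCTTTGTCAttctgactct
A match describes letters only and is not evidence of binding. No match to these letters was found in the windows of GSTM3, MGST3, GCLC, NQO1 and NFE2L2. Only the 250 bases before each start were searched, so sites farther away would not be seen.

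GSTP1, the pi-class glutathione transferase, had 93, 128 and 115 counts in the 3 T-REx libraries, 1, 0 and 0 in the TC4-2A libraries, and 44, 68 and 52 in the TL4-2A libraries. Scaled to library size, these are 4.93, 5.93 and 6.0 CPM for T-REx cells, 0.05, 0 and 0 CPM for TC4-2A cells, and 2.66, 3.64 and 3.17 CPM for TL4-2A cells. The 3 lines did not overlap, with TC4-2A cells lowest and T-REx cells highest. A count of 0 allows up to 3 counts, or 0.142 and 0.161 CPM in the 2 TC4-2A libraries without a read. Pooled over libraries, 1 of 59920496 counts in TC4-2A cells against 336 of 59200053 in T-REx cells is 0.294% of the T-REx level, with an exact 95% interval of 0.00742% to 1.65% that covers counting error only. Against TL4-2A cells the same count is 0.529% (exact 95% interval 0.0133% to 2.99%). The contrast between TL4-2A and T-REx cells was not itself used to pick GSTP1 and was tested. It shares its T-REx libraries with the contrast on which GSTP1 stood out, so it is not wholly free of that choice. GSTP1 was lower in TL4-2A cells by a log2 fold change of -0.83 (standard error 0.16, adjusted p = 4.11e-05 by the quasi-likelihood test of edgeR).

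Among the 12357 genes tested with at least 5 CPM in T-REx cells, GSTP1 had the fifth lowest ratio of TC4-2A to T-REx cells, and 7 genes stood at or under 1% of their T-REx level. For TL4-2A cells GSTP1 was at place 176 of the same genes. The genes whose pattern over the 9 libraries was closest to that of GSTP1 were sought among 9995 protein-coding genes with at least 10 CPM in both T-REx and TL4-2A cells, by distance in log2(CPM + 0.5) from the T-REx mean. The cut left out CEBPE, at 8.59 CPM in TL4-2A cells and 0.381% of its T-REx level in TC4-2A cells. GSTP1 itself lies under the cut. The added 0.5 CPM limits how far a fall near 0 counts, so closeness depends on both settings. The closest was TSHZ2, a zinc finger transcription factor on chromosome 20, at a distance of 0.539. By mean CPM TSHZ2 kept 5.71% of its T-REx level in TC4-2A cells, and GSTP1 0.296%. TSHZ2 stood at 27.0 ± 0.729 CPM (SD, n = 3) in T-REx cells, 1.54 ± 0.0843 with the circular RNA (TC4-2A) and 14.4 ± 1.02 with the linear RNA (TL4-2A). The protocadherin PCDH19 and the angiomotin gene AMOT on the X chromosome followed at 1.78 and 2.01, and SELENOP, a secreted selenium carrier, and HMCN1, an extracellular matrix protein, at 3.09 and 3.11. PCDH19 and AMOT were not lower in TL4-2A cells, with 70.3 and 283 CPM against 60.6 and 225 CPM in T-REx cells.

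The log2 fold changes of the genes near GSTP1 in TC4-2A cells were all between -0.38 and 0.29. The nearest genes tested were CDK2AP2, an inhibitor of CDK2 activity, and NDUFV1, a subunit of respiratory complex I. CDK2AP2 stood at 15.3 ± 1.44 CPM (SD, n = 3) in T-REx cells, 13.3 ± 0.239 with the circular RNA (TC4-2A) and 16.3 ± 2.78 with the linear RNA (TL4-2A). NDUFV1, whose annotated start lies 0.0219 Mb beyond that of GSTP1, had 67.7 ± 2.49, 69.2 ± 0.627 and 66.4 ± 1.09 CPM. Over the 10 genes tested on each side, the median log2 fold change in TC4-2A against T-REx cells was -0.05. In that comparison 0 of the 20 passed edgeR's test, 4 had an unadjusted p under 0.05, and 0 passed with DESeq2. Of all genes tested 28.8% passed edgeR's test there. In TL4-2A cells the median was -0.02, with 1 gene higher and 2 lower, against 21.9% and 22.5% of all genes tested. The 2 lower genes were NUDT8, a Nudix hydrolase, at -0.64 (adjusted p = 0.00589), and ALDH3B1, an aldehyde dehydrogenase, at -1.97 (edgeR adjusted p = 0.00195).

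**Figure D1:**
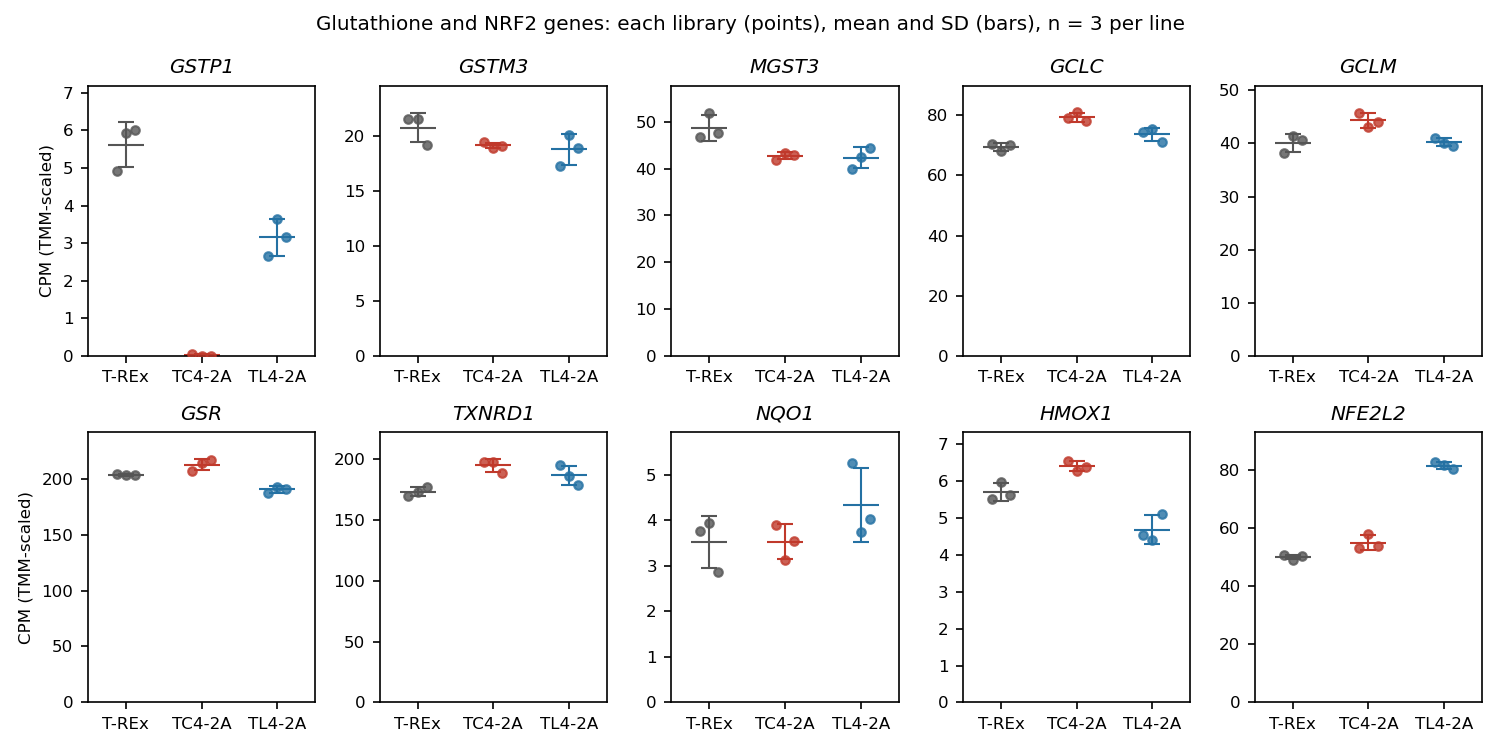
Expression of the 10 genes in TMM-scaled CPM, with 1 panel per gene and a vertical axis that starts at 0. Points are libraries, horizontal bars the means and error bars the SD of 3 libraries in T-REx (grey), TC4-2A (red) and TL4-2A (blue) cells; GSTP1 is near 0 in TC4-2A cells and NFE2L2 stands above the other lines in TL4-2A cells at 80.3 to 82.8 CPM.

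Of the remaining glutathione transferases of the set, MGST3 was lower in both derived lines and GSTM3 did not pass the test. MGST3, a membrane enzyme of the MAPEG family (ENSG00000143198.13, chromosome 1 from 165631213 to 165661796, plus strand), stood at 46.7, 51.8 and 47.6 CPM in the T-REx libraries, at 41.9, 43.4 and 42.9 in those of TC4-2A and at 40.0, 42.5 and 44.4 in those of TL4-2A. All libraries of the derived lines lay under those of T-REx cells. The log2 fold changes were -0.19 (standard error 0.05, edgeR adjusted p = 0.00348) in TC4-2A and -0.21 (standard error 0.05, adjusted p = 0.00131) in TL4-2A cells. GSTM3, a mu-class transferase (ENSG00000134202.11, chromosome 1 from 109733932 to 109741038, minus strand), stood at 21.5, 21.5 and 19.2 CPM in the T-REx libraries, at 19.4, 18.9 and 19.1 in those of TC4-2A and at 17.3, 20.1 and 18.9 in those of TL4-2A. Its libraries overlapped, and neither -0.11 in TC4-2A (adjusted p = 0.21) nor -0.14 in TL4-2A cells (adjusted p = 0.087) passed the test. The TL4-2A value passed without T-REx replicate 3 (edgeR adjusted p = 0.0345) and likewise when TL4-2A replicate 2 was left out (0.04). GSTM3 and other mu-class genes are close in sequence, so the division of reads among them is uncertain.

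The RNA of both subunits of the ligase of glutathione synthesis was higher in TC4-2A cells by edgeR. GCLC, the catalytic subunit (ENSG00000001084.13, chromosome 6 from 53497341 to 53616970, minus strand), stood at 70.3, 68.0 and 70.1 CPM in the T-REx libraries, at 79.1, 80.9 and 78.0 in those of TC4-2A and at 74.3, 75.5 and 71.1 in those of TL4-2A. The 3 groups did not overlap. GCLC rose by 0.19 on the log2 scale in TC4-2A cells (standard error 0.04, edgeR adjusted p = 0.000513), and the 0.08 of TL4-2A cells did not pass the test (adjusted p = 0.108). GCLM, the modifier subunit (ENSG00000023909.10, chromosome 1 from 93885199 to 93909456, minus strand), stood at 38.1, 41.3 and 40.6 CPM in the T-REx libraries, at 45.8, 43.1 and 44.1 in those of TC4-2A and at 41.1, 40.1 and 39.6 in those of TL4-2A. TC4-2A cells were above both other lines, while T-REx and TL4-2A cells overlapped. GCLM rose by 0.15 in TC4-2A cells (standard error 0.05, edgeR adjusted p = 0.0201). The rise did not pass with DESeq2 (adjusted p = 0.0815), without T-REx replicate 1 (edgeR adjusted p = 0.0926) or without TC4-2A replicate 1 (adjusted p = 0.0805). In TL4-2A cells GCLM differed from T-REx cells by 0.01 (95% normal interval -0.09 to 0.11, edgeR adjusted p = 0.913).

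The reductases were the most abundant of the 10 genes and their log2 fold changes ran from -0.10 to 0.17. GSR, glutathione reductase (ENSG00000104687.14, chromosome 8), stood at 204, 203 and 203 CPM in the T-REx libraries, at 207, 214 and 217 in those of TC4-2A and at 187, 193 and 191 in those of TL4-2A. The lines did not overlap, with TC4-2A cells highest and TL4-2A cells lowest. The fall of -0.10 in TL4-2A cells passed the test (edgeR adjusted p = 0.00691), and the 0.06 of TC4-2A cells did not (adjusted p = 0.0921). TXNRD1, the cytosolic thioredoxin reductase (ENSG00000198431.16, chromosome 12 from 104215779 to 104350307, plus strand), stood at 170, 173 and 177 CPM in the T-REx libraries, at 198, 198 and 189 in those of TC4-2A and at 195, 186 and 179 in those of TL4-2A. Each derived line was above T-REx cells, and the derived lines overlapped. TXNRD1 rose by 0.17 in TC4-2A (standard error 0.03, edgeR adjusted p = 5.48e-05) and by 0.11 in TL4-2A cells (standard error 0.03, adjusted p = 0.0067). The rise in TL4-2A cells did not pass without TL4-2A replicate 1 (0.07, edgeR adjusted p = 0.101).

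NQO1 and HMOX1, an NAD(P)H quinone reductase and the inducible haem oxygenase that are often read as markers of NRF2 activity, were expressed at a low level. NQO1 (ENSG00000181019.13, chromosome 16 from 69706996 to 69726668, minus strand) stood at 3.76, 3.94 and 2.87 CPM in the T-REx libraries, at 3.90, 3.13 and 3.55 in those of TC4-2A and at 5.27, 3.74 and 4.02 in those of TL4-2A, from 55 to 87 counts each. The lines overlapped. The difference of TC4-2A from T-REx cells was -0.01 (95% normal interval -0.33 to 0.31, edgeR adjusted p = 0.984), and that of TL4-2A cells was 0.29 (interval -0.03 to 0.61, adjusted p = 0.145). HMOX1 (ENSG00000100292.18, chromosome 22 from 35380361 to 35394214, plus strand) stood at 5.51, 5.98 and 5.63 CPM in the T-REx libraries, at 6.54, 6.27 and 6.39 in those of TC4-2A and at 4.54, 4.39 and 5.12 in those of TL4-2A. TC4-2A libraries lay above and TL4-2A libraries below those of T-REx cells, but neither 0.16 (edgeR adjusted p = 0.32) nor -0.29 (adjusted p = 0.0589) passed the test. Without TL4-2A replicate 3 the latter was -0.36 (edgeR adjusted p = 0.0424). The derived lines differed from each other, with HMOX1 higher in TC4-2A than in TL4-2A cells by 0.45 (standard error 0.12, edgeR adjusted p = 0.00361).

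NFE2L2, the gene of NRF2 itself (ENSG00000116044.16, chromosome 2 from 177218667 to 177392756, minus strand), had the largest rise of the set. It stood at 50.6, 49.1 and 50.4 CPM in the T-REx libraries, at 53.3, 58.0 and 53.8 in those of TC4-2A and at 82.8, 81.6 and 80.3 in those of TL4-2A. No lines overlapped, and TL4-2A cells stood far above the others. NFE2L2 rose by 0.70 on the log2 scale in TL4-2A cells (standard error 0.05, edgeR adjusted p = 2.93e-15) and by 0.14 in TC4-2A cells (standard error 0.05, adjusted p = 0.0247). The rise in TC4-2A cells did not pass with DESeq2 (adjusted p = 0.0549), without T-REx replicate 2 (edgeR adjusted p = 0.102) or without TC4-2A replicate 2 (adjusted p = 0.161). TL4-2A exceeded TC4-2A cells, with a log2 difference of -0.57 for TC4-2A less TL4-2A (standard error 0.05, edgeR adjusted p = 7.46e-13).

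Many genes near NFE2L2 were also higher in TL4-2A cells. Of the 20 nearest genes tested, TL4-2A cells had 12 higher and 1 lower, with a median log2 fold change of 0.42. Of all genes tested 21.9% were higher and 22.5% lower. HNRNPA3, an RNA-binding protein, rose from 615 ± 16.0 to 879 ± 22.3 CPM (SD, n = 3), a log2 fold change of 0.52 (edgeR adjusted p = 2.12e-17), and AGPS, an enzyme of ether lipid synthesis, had 0.48 (adjusted p = 2.77e-14). In TC4-2A cells the median of the 20 nearest genes was -0.02, with 1 higher and 2 lower, against 14.2% and 14.6% of all genes tested. The higher gene there was HNRNPA3, at 0.11 (edgeR adjusted p = 0.00258). The lower gene in TL4-2A cells was ENSG00000213963, at -0.45 (edgeR adjusted p = 0.00784), which overlaps NFE2L2 on the same strand. HNRNPA3 and AGPS overlap the annotated range of NFE2L2 on the opposite strand, and no source used here says whether reads were counted by strand, so reads where they overlap may be divided uncertainly. The part of the neighbourhood in the rise of NFE2L2 was not tested.

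Genes near NQO1 on chromosome 16 were lower in TL4-2A cells. Of its 20 nearest genes tested 13 were lower in TL4-2A cells, with a median of -0.46, and 0 were higher by edgeR, at an unadjusted p under 0.05, or with DESeq2. Of all genes tested 22.5% were lower and 21.9% higher by edgeR. NQO1 itself was at 0.29, which did not pass the test. In TC4-2A cells the 20 genes had a median of 0.04, with 7 higher and 1 lower, against 14.2% and 14.6% of all genes tested. Around the other members the medians ran from -0.12, for GCLM in TC4-2A cells with 7 of 20 genes lower, to 0.09, for HMOX1 in TL4-2A cells with 8 higher and 1 lower. GCLM, and HMOX1 without passing the test, had the opposite sign to these medians. Among the others both cases occurred. GSR in TL4-2A cells had the sign of its neighbour median of -0.1. MGST3, lower in both lines, had the sign of its median in TC4-2A cells (-0.07) but not in TL4-2A cells (0.06). Over all genes tested, 14.6% were lower in TC4-2A cells and 21.9% higher in TL4-2A cells.

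**Figure D2:**
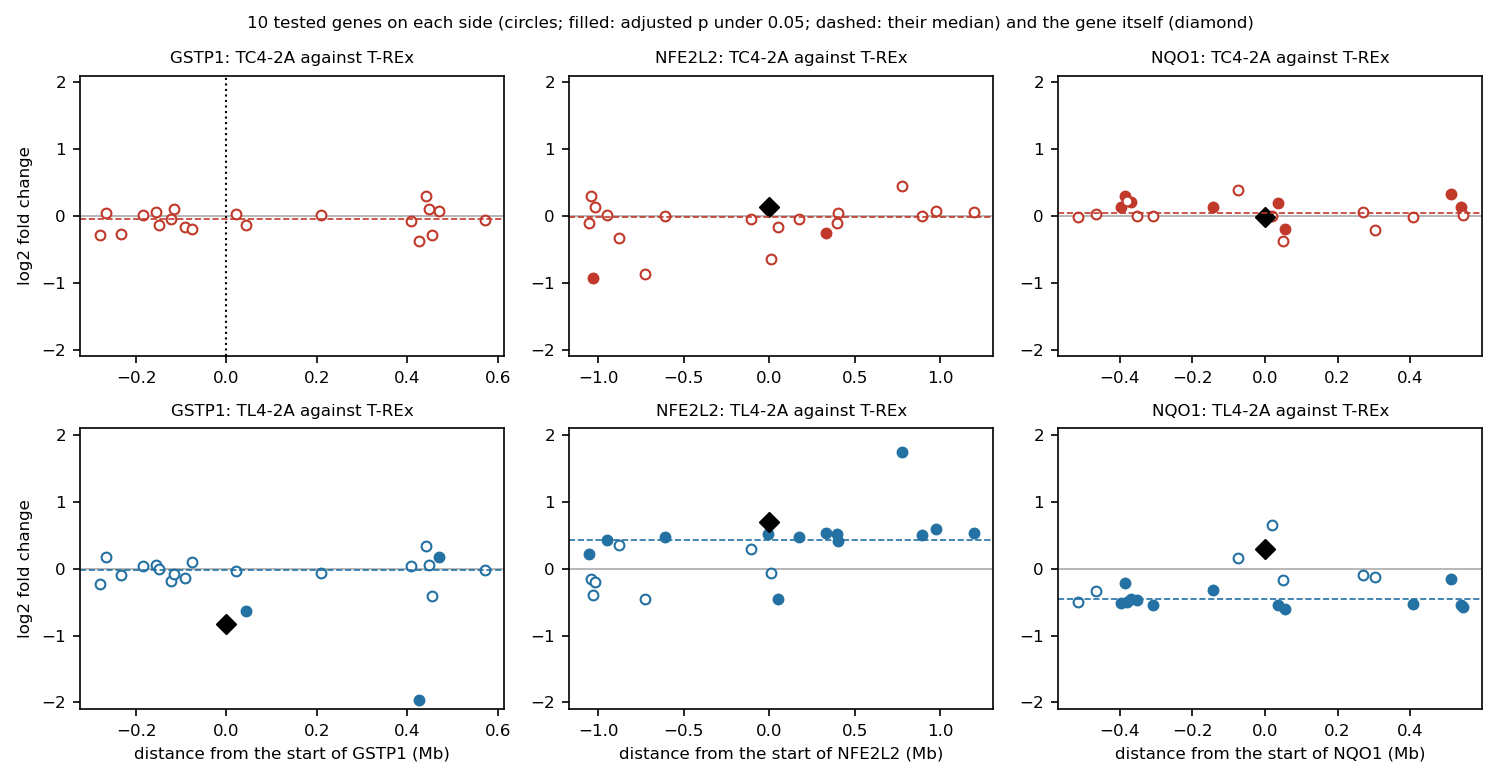
Log2 fold change against T-REx cells (vertical axis) of the 10 genes tested on each side of GSTP1, NFE2L2 and NQO1, by distance in Mb from the start of each (horizontal axis), in TC4-2A (upper row) and TL4-2A cells (lower row). Filled circles passed the test, dashed lines are the medians of the 20 genes, diamonds are the genes themselves and the dotted line marks GSTP1 in TC4-2A cells, which was not tested; in TL4-2A cells the medians are -0.02, 0.42 and -0.46.

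The counts of members called are set against those of all genes. Of the 9 members tested 4 were higher (GCLC, GCLM, TXNRD1 and NFE2L2) and 1 lower (MGST3) in TC4-2A against T-REx cells, while 28.8% of all genes tested were called, 14.2% higher and 14.6% lower. With DESeq2 3 of the 9 passed, where it called 3987 of all 18764 genes with an adjusted p. The libraries of 7 of the 9 did not overlap, against 40.3% of all genes. Their median log2 fold change was 0.14, that of all genes 0, and the called members changed by 0.14 to 0.19 in size, near the median size of change over all genes of 0.14. In TL4-2A against T-REx cells 5 of 10 passed, 2 higher (TXNRD1 and NFE2L2) and 3 lower (GSTP1, MGST3 and GSR), where 44.3% of all genes tested were called, 21.9% higher and 22.5% lower. The libraries of 7 of the 10 did not overlap, against 51.6% of all genes. The members' median was -0.05, that of all genes 0, and the share called was close to the background.

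TC4-2A and TL4-2A cells, which make RNA of the same exons in circular and linear form, were also compared directly. GCLC, GCLM, GSR and HMOX1 were higher and NFE2L2 lower in TC4-2A cells, 5 of 9 members where 35.4% of all genes tested were called, 17.6% higher and 17.8% lower. The libraries of 5 of the 9 did not overlap, against 44.9% of all genes. GSR was higher by 0.16 (standard error 0.03, edgeR adjusted p = 2.6e-05) and GCLM by 0.14 (standard error 0.05, adjusted p = 0.0264). The GCLM difference did not pass with DESeq2 (adjusted p = 0.106), without TC4-2A replicate 1 (edgeR adjusted p = 0.0965) or without TL4-2A replicate 3 (0.0682). GCLC was higher by 0.11 (edgeR adjusted p = 0.0476), a call that was lost with RLE scaling (adjusted p = 0.0517), with only the 2 lines fitted (0.0609) and with DESeq2 (0.102), and in all 9 fits that left out 1 library (0.0505 to 0.206). With DESeq2 the count was 3, as it was without TC4-2A replicate 1 or TL4-2A replicate 3. DESeq2 called 5090 of all 20964 genes with an adjusted p in this comparison. MGST3 differed by 0.01 between the lines (95% normal interval -0.09 to 0.12), GSTM3 by 0.03 (-0.11 to 0.16) and TXNRD1 by 0.06 (edgeR adjusted p = 0.117). TC4-2A and TL4-2A cells share their T-REx controls in the comparisons above, so a like direction in both is not independent evidence.

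**Figure D3:**
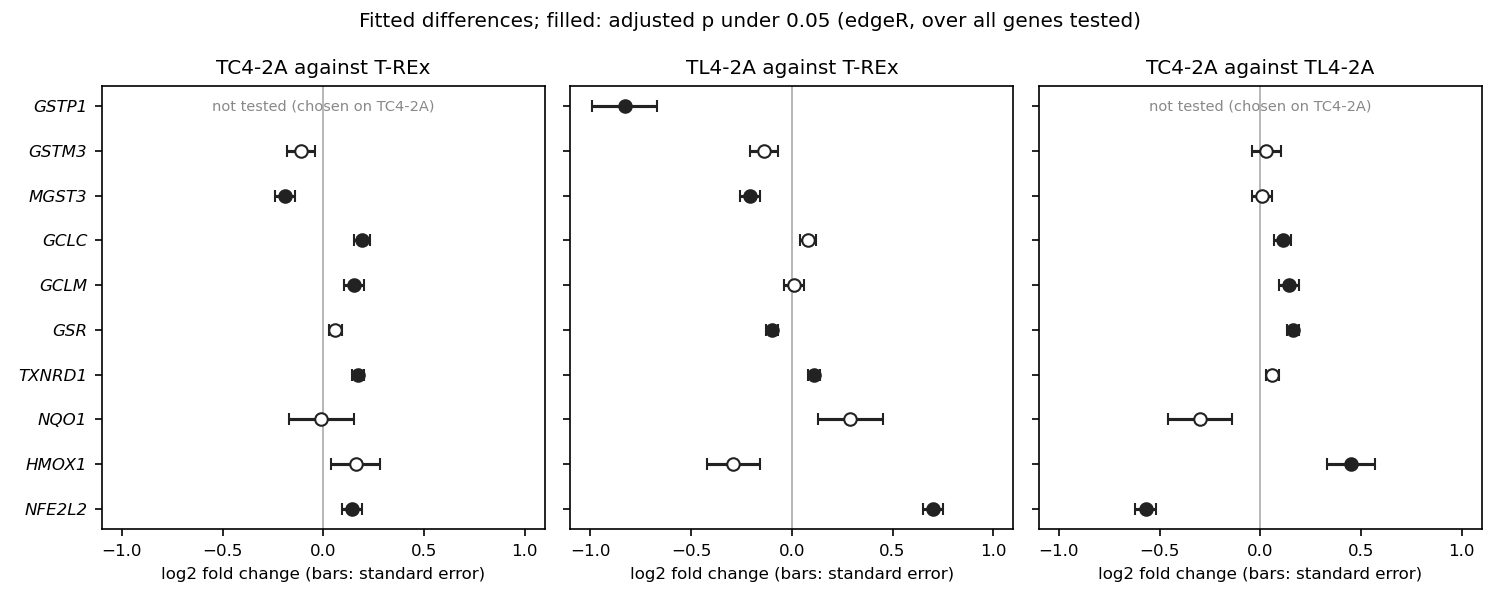
Fitted log2 fold changes (points) with standard errors (bars) of the 10 genes in the 3 comparisons, filled where the adjusted p over all genes tested is under 0.05. GSTP1 is tested only in TL4-2A against T-REx cells, at -0.83, and NFE2L2 is at 0.70 in TL4-2A cells and 0.14 in TC4-2A cells.

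Levels were also compared between genes per kb of annotated exon. The length counts every annotated exon of a gene, 14.98 kb for NFE2L2 and 1.76 kb for GSTP1, whatever transcripts the cells make. The order therefore depends on the annotation as well as on expression. Before this division NFE2L2 had 50.1 and GSTP1 5.62 CPM in T-REx cells. In T-REx cells GSR was highest at 56.5 CPM per kb, followed by TXNRD1 at 25.9, GCLC at 8.06, GCLM at 7.37, MGST3 at 6.05 and GSTM3 at 4.36. NFE2L2 at 3.34 and GSTP1 at 3.19 CPM per kb overlapped, and HMOX1 at 2.48 and NQO1 at 1.19 were lowest. In TC4-2A cells the order was the same except that GSTP1 was last at 0.00944. In TL4-2A cells NFE2L2 moved up to 5.44 CPM per kb, where it overlapped MGST3 at 5.25, and HMOX1 at 2.03 overlapped GSTP1 at 1.79, which in turn overlapped NQO1 at 1.46.

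The other genes of the pathway were followed in 6 lists, in which SLC7A11, SRXN1, PRDX1, TXN, ABCC1 and SQSTM1 stand in more than 1. The shares of each list that passed are set beside those of all genes tested, 28.8% for TC4-2A (14.2% higher, 14.6% lower) and 44.3% for TL4-2A (21.9% higher, 22.5% lower). DESeq2 called fewer, 3987 of 18764 genes with an adjusted p for TC4-2A and 6533 of 21698 for TL4-2A. Of 11 further glutathione transferases and MAPEG enzymes tested, 3 were higher in TC4-2A cells (median 0.05) and 2 lower in TL4-2A cells (median -0.09), and 0 went the other way by edgeR, at an unadjusted p under 0.05, or with DESeq2. These are 27.3% and 18.2% of the list, both under the shares of all genes, and DESeq2 found 2 higher for TC4-2A and 2 lower for TL4-2A. MGST2, a microsomal transferase, rose from 23.1 ± 1.14 to 32.5 ± 1.39 CPM (SD, n = 3) in TC4-2A cells, a log2 fold change of 0.49 (edgeR adjusted p = 4.02e-09). GSTK1, the kappa-class enzyme, rose by 0.39 (edgeR adjusted p = 2.76e-07). GSTO2, an omega-class enzyme, fell from 17.9 ± 2.23 to 7.72 ± 0.494 CPM in TL4-2A cells (-1.20, edgeR adjusted p = 1.55e-13) and had 0.20 in TC4-2A cells (adjusted p = 0.0408). GSTZ1 fell by 0.23 on the log2 scale in TL4-2A cells.

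Among 13 genes of glutathione synthesis, breakdown and transport, 3 were higher in TC4-2A cells, while TL4-2A cells had 3 higher and 5 lower. In TC4-2A cells 0 of the 13 were lower by edgeR and by DESeq2, and 1 at an unadjusted p under 0.05. The share that passed was 23.1% for TC4-2A, under the 28.8% of all genes, and 61.5% for TL4-2A, against 44.3%. SLC7A11, the cystine transporter that supplies glutathione synthesis, rose from 64.3 ± 2.97 to 105 ± 5.74 CPM (SD, n = 3) in TC4-2A cells (0.71, edgeR adjusted p = 1.29e-15) and by 0.22 in TL4-2A cells (adjusted p = 0.000152). CNDP2, a dipeptidase that acts on cysteinylglycine, rose by 0.61 in TC4-2A cells (edgeR adjusted p = 2.39e-14) and had 0.03 in TL4-2A cells. GGT7 rose by 0.45 and GGCT fell by 0.31 in TL4-2A cells. GSS, the second enzyme of synthesis, is no gene of the naming rule and had 0.12 (edgeR adjusted p = 0.0632) in TC4-2A and -0.07 (adjusted p = 0.289) in TL4-2A cells.

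Of 12 glutathione peroxidases, glutaredoxins and glyoxalases, TC4-2A cells had 1 higher and 5 lower, and TL4-2A cells 5 lower. These are 6 of 12 genes, where 28.8% of all genes passed, and 41.7%, close to the 44.3% of all genes. With DESeq2 the 5 lower in TC4-2A cells became 3. Of 12 genes of the thioredoxin and peroxiredoxin system, 5 were lower in TC4-2A cells, while TL4-2A cells had 1 higher and 6 lower, or 41.7% and 58.3% of the list. GLRX3, a glutaredoxin of iron-sulfur cluster handling, fell from 101 ± 2.56 to 72.6 ± 1.84 CPM (SD, n = 3) in TC4-2A cells (-0.48, edgeR adjusted p = 7.34e-12). PRDX3, the mitochondrial peroxiredoxin, fell from 165 ± 6.30 to 126 ± 1.94 CPM (-0.39, edgeR adjusted p = 1.47e-11), and had -0.05 in TL4-2A cells (adjusted p = 0.217). PRDX4, the peroxiredoxin of the endoplasmic reticulum, fell in both lines, with -0.22 and -0.34. So did the glyoxalase GLO1, with -0.16 and -0.17, and the glutaredoxin GLRX, with -0.25 and -0.37. The esterase ESD rose by 0.30 in TC4-2A cells, the thioredoxin inhibitor TXNIP fell by 0.23 there, and PRDX1 fell by 0.19 in TL4-2A cells.

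Of 25 other known targets tested, TC4-2A cells had 3 higher and 3 lower (median 0.03), and TL4-2A cells had 5 higher and 10 lower (median -0.03), the line with the larger rise of NFE2L2. The share that passed was 6 of 25 for TC4-2A, near the 28.8% of all genes, and 60.0% for TL4-2A, against 44.3%. DESeq2 found 2 higher and 2 lower for TC4-2A, and 3 higher and 8 lower for TL4-2A. FTL, the ferritin light chain, fell from 140 ± 4.33 to 92.5 ± 4.18 CPM (SD, n = 3) in TL4-2A cells (-0.60, edgeR adjusted p = 3.94e-15) and had 0.04 in TC4-2A cells (adjusted p = 0.51). PGD, an enzyme of the pentose phosphate pathway that makes NADPH, fell from 273 ± 3.01 to 192 ± 6.38 CPM in TL4-2A cells (-0.51, edgeR adjusted p = 1.15e-16). OSGIN1, a growth inhibitor induced by oxidative stress, fell from 2.29 ± 0.499 to 0.973 ± 0.156 CPM in TL4-2A cells (-1.22, edgeR adjusted p = 0.000141). IDH1, a cytosolic source of NADPH, rose by 0.51 in TL4-2A cells (edgeR adjusted p = 1.79e-11).

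Of 15 partners and regulators of NRF2, TC4-2A cells had 2 higher and 4 lower, and TL4-2A cells had 3 higher and 6 lower. These are 40.0% and 60.0% of the list, against 28.8% and 44.3% of all genes. CUL3, the scaffold of the ubiquitin ligase that degrades NRF2, rose from 105 ± 0.537 to 153 ± 2.71 CPM (SD, n = 3) in TL4-2A cells (0.55, edgeR adjusted p = 1.24e-15). KEAP1, the sensor of the same ligase, is outside the naming rule and had 35.6 CPM in T-REx cells, 38.4 with the circular RNA (TC4-2A) and 37.1 with the linear RNA (TL4-2A), with no call in either line (edgeR adjusted p = 0.1 and 0.344). MAFF, a small MAF partner, fell from 1.61 ± 0.226 CPM to 0.845 ± 0.227 in TC4-2A (-0.91, edgeR adjusted p = 0.00747) and 0.543 ± 0.0630 in TL4-2A cells (-1.56, adjusted p = 5.72e-05). BACH2, a repressor at the same elements, fell in both lines, with -0.24 and -0.34, NFE2L1 fell by 0.21 on the log2 scale in TL4-2A cells and DPP3, a KEAP1-binding peptidase, by 0.33 in TC4-2A cells.

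The neighbours of the genes named in these lists were looked at after the values of those genes were seen, and some but not all had neighbours that moved the same way. In TC4-2A cells the median of the 20 nearest genes tested was 0.42 around SLC7A11 and 0.50 around MGST2 on chromosome 4, 0.40 around GSTK1 on chromosome 7 and 0.54 around CNDP2 on chromosome 18. It was -0.63 around GLRX3 and -0.49 around PRDX3 on chromosome 10. Around MGST2 15 of the 20 genes were higher, and around PRDX3 17 of the 20 were lower, against 14.2% and 14.6% of all genes tested. Around ESD, which also rose, the median was 0.23, with 10 of 20 genes higher and 1 lower. In TL4-2A cells the median was 0.46 around CUL3 and 0.49 around IDH1 on chromosome 2, and -0.45 around both PGD on chromosome 1 and OSGIN1 on chromosome 16. PRDX4 and GLRX, which fell in each derived line, had neighbour medians of the same sign but smaller size. Around PRDX4 the median was -0.19 for TL4-2A and -0.11 for TC4-2A. Around GLRX it was -0.16 for TL4-2A and -0.08 for TC4-2A. Some other genes that passed the test had neighbour medians near 0 or of the other sign. In TL4-2A cells the medians were -0.06 around FTL, 0.15 around MAFF, 0.02 around GGT7, 0.01 around both GGCT and GLO1, 0.08 around NFE2L1, 0.07 around PRDX1 and -0.05 around GSTZ1. In TC4-2A cells they were 0.06 around DPP3, 0.02 around TXNIP, 0.01 around GLO1 and -0.05 around BACH2. The neighbours of GSTO2 had a median of -0.20 in TL4-2A and -0.33 in TC4-2A cells, where GSTO2 itself was at 0.20. The part of the neighbourhood in these changes was not tested.

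**Figure D4:**
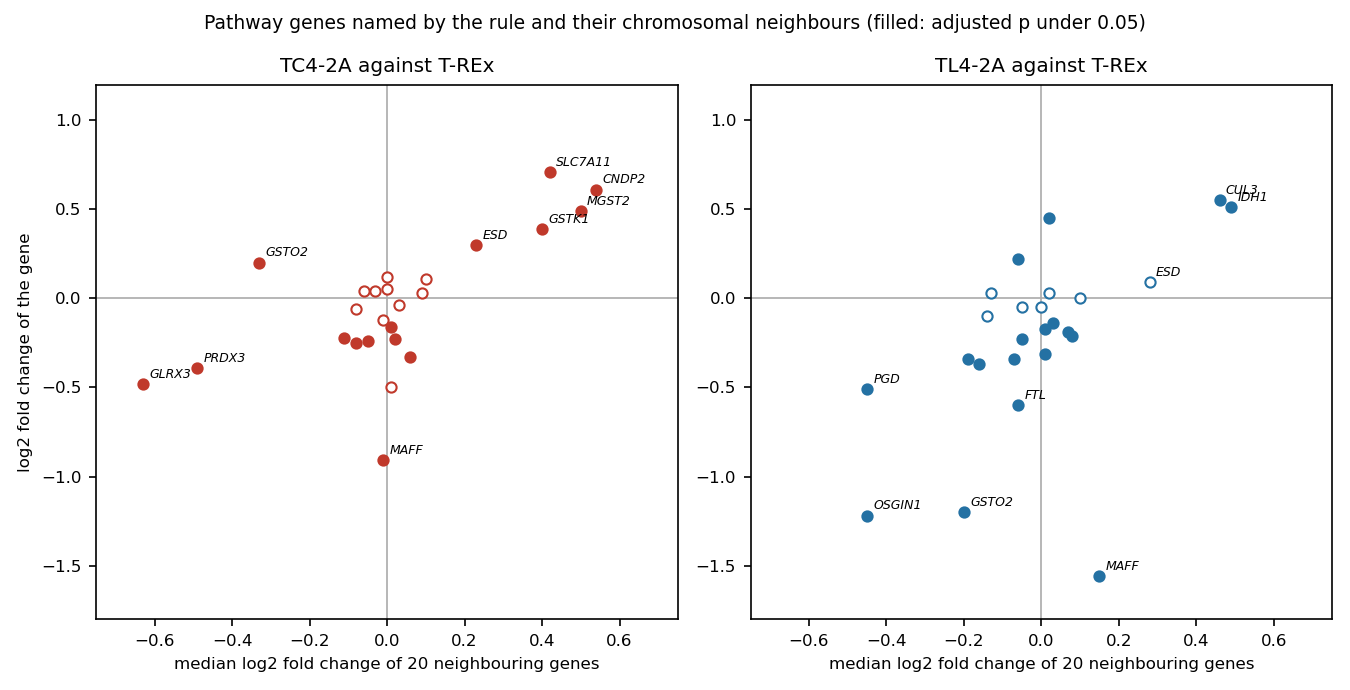
Log2 fold change against T-REx cells of each pathway gene that the naming rule took (vertical axis) by the median log2 fold change of its 20 nearest genes tested (horizontal axis), in TC4-2A (left) and TL4-2A cells (right), filled where the adjusted p of the gene is under 0.05. The genes were picked for small p-values, so their distance from 0 is not a finding; SLC7A11 lies at 0.71 with a neighbour median of 0.42, and FTL at -0.60 with a neighbour median of -0.06.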

How the data were processed

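The authors mapped paired-end reads of directional, ribosomal-RNA-depleted libraries to GRCh38 with HISAT2 and assigned them to Gencode v33 genes with featureCounts. No source used here gives versions or options. The deposited values are raw counts per gene. 2 deposited tables of the authors' DESeq2 comparisons (fold changes, p-values) were not used. Of 60651 lines 3 damaged ones were left out.

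Gene names, positions and exon lengths came from Gencode v44, also on GRCh38, and promoters from RefSeq. With edgeR 4.0.16 (R 4.3.3), low genes were removed by filterByExpr, TMM set the library scaling, and all 9 libraries entered 1 quasi-likelihood fit of the 3 lines. A 2-sided test was passed where its p, adjusted over all 19473 genes by Benjamini-Hochberg, was under 0.05, and standard errors were derived from the F statistic. The fit was tested on simulated data. Alternatives were DESeq2 1.42.0, RLE scaling, other filters, fewer libraries and a replicate block. Library size sets the precision, and intervals cover counting error only where so stated.

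The members and lists were chosen with earlier results of these data known. Genes named were all members, in each list the 4 with the smallest p against T-REx cells and those called beyond 2-fold, the 5 genes most like GSTP1 and the nearest genes tested. Genes outside this rule are named as such or were chosen after their values were seen, as were NUDT8, ALDH3B1, AGPS and ENSG00000213963.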

Additional observations from a re-analysis of the deposited data

Results flagged for a closer look

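The direct test of TC4-2A against TL4-2A cells called 5 members, of which 3 passed with DESeq2. NFE2L2 differed by -0.57 on the log2 scale (standard error 0.05, adjusted p = 7.46e-13 from edgeR) and HMOX1 by 0.45 (standard error 0.12, adjusted p = 0.00361). The differences were 0.16 for GSR (adjusted p = 2.6e-05 from edgeR), 0.14 for GCLM (adjusted p = 0.0264) and 0.11 for GCLC (adjusted p = 0.0476). The GCLM difference did not pass with DESeq2 (adjusted p = 0.106) or in 2 of the fits that left out 1 library (edgeR adjusted p = 0.0682 and 0.0965). The GCLC difference did not pass with RLE scaling (edgeR adjusted p = 0.0517), with only these lines fitted (0.0609), with DESeq2 (0.102) or in any of the 9 fits that left out 1 library (0.0505 to 0.206). Groups of 3 libraries were not searched for outlying samples.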

How the results depend on the processing

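With DESeq2 the members called fell from 5 to 3 for TC4-2A cells compared with T-REx cells, and likewise from 5 to 3 for the direct contrast of the derived lines. Calls over all genes also fell, from 5607 of 19473 to 3987 of 18764 and from 6884 of 19473 to 5090 of 20964. Leaving out 1 library gave 4 to 5 members called for TC4-2A cells, 4 to 6 for TL4-2A cells and 3 to 5 for the direct contrast. The replicate block left all 3 counts at 5. No pairing by replicate number was seen, with correlations of deviations from -0.0295 to 0.0302 for same-numbered libraries of different lines. Such correlations cannot show that the libraries were not prepared in matched sets. Over all alternatives, 385 fold changes of members kept their sign and their side of the threshold, 22 lost the call, 4 gained one and 8 turned sign, none of these 8 called. With 1 library left out NQO1 in TC4-2A cells ran from -0.13 to 0.09, and was 0.04 without T-REx replicate 1, 0.09 without T-REx replicate 2 and 0.07 without TC4-2A replicate 2. GCLM in TL4-2A cells was -0.00435 with no expression filter and ran from -0.03 to 0.03 with 1 library left out, at -0.03 without T-REx replicate 1 and -0.01 without TL4-2A replicate 1. In the direct contrast GSTM3 ran from -0.02 to 0.08 and MGST3 from -0.02 to 0.05, both lowest without TL4-2A replicate 1. Unscaled CPM moved the mean of GSTP1 by less than 1 SD in each line. GSTP1 could not be fitted with at least 10 counts in every library. With 5 neighbours on each side in place of 10, the median around GSTP1 was -0.1 for TC4-2A, -0.08 for TL4-2A and 0.07 for the direct contrast. In TC4-2A cells it was 0.08 around GSTM3, -0.11 around MGST3, 0.02 around GCLC, -0.17 around GCLM, -0.01 around TXNRD1 and -0.13 around NFE2L2. In TL4-2A cells it was 0.26 around MGST3, -0.14 around GSR, -0.09 around TXNRD1 and -0.38 around NQO1. Between the derived lines it was -0.31 around MGST3, 0.04 around TXNRD1 and 0.44 around NQO1. The cause of these changes was not tested. Low counts limit NQO1, HMOX1 and GSTP1 most.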
